A study of Mus musculus with 12 samples.

Results

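Osteoclasts are large bone-resorbing cells of the macrophage lineage, and 10 genes best known from them were followed in macrophages of mouse skin: Ctsk, Acp5, Gpnmb, Dcstamp, Ocstamp, Itgb3, Tnfrsf11a, Calcr, Nfatc1 and Mitf. Ctsk and Gpnmb entered the set because they were already known to be higher in melanophages than in macrophages on these same arrays. The other 8 were added for their known roles in osteoclasts, to ask whether more of the osteoclast programme was shared. All 10 were measured, out of 19938 genes with a probe set of their own, and 1 probe set per gene was used (the one with the highest mean over the arrays). Ctsk and Gpnmb are therefore described between the cell kinds without a test, and the other 8 were tested there.

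The cells were sorted from the skin of untreated wild-type C57BL/6 mice kept specific-pathogen-free, and profiled on 12 Affymetrix arrays. There were 3 arrays for each of 4 groups: MHC-II-positive melanophages, MHC-II-negative melanophages, MHC-II-positive macrophages and MHC-II-negative macrophages. Melanophages are macrophages laden with melanin pigment, sorted here by a high side scatter. By the sort every group carried CD11b and CD64 and lacked CD24, CCR2 and Ly6c, and the side scatter of the macrophages is given as high in the titles and as low in the phenotype field. Neither the age of the mice nor any pooling of animals is given in the labels. Nor do they say whether different mice stand behind the 3 arrays of each group, and the p-values cover the spread among these samples alone, part of which may be technical.

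An osteoclast forms when the cytokine RANKL binds its receptor RANK, the product of Tnfrsf11a, on a myeloid precursor. RANK signalling induces the transcription factor NFATc1, which acts together with MITF. The fusion proteins DC-STAMP and OC-STAMP then join precursors into a multinucleated cell, which dissolves bone with acid and with the protease cathepsin K. Several of these genes are also used by other macrophages that digest large loads in lysosomes, and GPNMB and MITF have further roles in pigment cells.

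Values are log2 expression values, so a difference of 1 is a doubling of the signal. The medians of the arrays over all probe sets lay between 2.97 and 3.08, and a gene near that level is dim, so that its differences may be understated. Arrays correlated with the others of their group at 0.972 to 0.988 on average. Farthest from their group stood replicate 3 of the MHC-II-positive and replicate 1 of the MHC-II-negative macrophages. The 8 macrophage markers (Adgre1, Csf1r, Fcgr1, Mertk, Cd68, C1qa, C1qb and Mrc1) stood above the array medians in every group. Mertk was the lowest, with group means of 4.23 to 4.5. The mean over these 8 markers ranged from 8.85 to 9.01 on the melanophage arrays and from 8.88 to 9.16 on the macrophage arrays. Fcgr1 encodes CD64, by which the cells were sorted, so it is no separate check of the lineage. Markers of other cell types, dendritic cells included, are given further on.

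Ctsk encodes cathepsin K, the collagen-degrading cysteine protease of osteoclast lysosomes. Its log2 values were 8.81, 9.40 and 8.97 in MHC-II-positive melanophages and 9.56, 9.96 and 9.66 in MHC-II-negative melanophages. In MHC-II-positive macrophages they were 6.71, 5.82 and 7.52, and in MHC-II-negative macrophages 7.90, 7.18 and 7.34. Every melanophage array was above every macrophage array, with 0.91 between the lowest melanophage array and the highest macrophage array. Averaged over MHC-II class, the log2 difference of melanophages minus macrophages was 2.32 ± 0.25 (SE of the limma fit, 95% confidence interval 1.75 to 2.88), a 4.98-fold higher signal. The log2 difference was of like size in both classes, 2.38 ± 0.36 among MHC-II-positive and 2.25 ± 0.36 among MHC-II-negative cells.

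Gpnmb encodes a transmembrane glycoprotein of melanosomes and lysosomes that osteoclasts and lipid-laden macrophages also make. Its log2 values were 7.28, 6.19 and 6.19 in MHC-II-positive melanophages and 8.05, 6.74 and 6.17 in MHC-II-negative melanophages. In MHC-II-positive macrophages they were 5.24, 4.56 and 4.93, and in MHC-II-negative macrophages 4.84, 4.31 and 4.11. Here too the cell kinds did not overlap, with a gap of 0.94, but the spread within melanophages was wide. Replicate 1 was the highest of the 3 arrays in all 4 groups. The averaged log2 difference was 2.11 ± 0.32 (SE, 95% confidence interval 1.4 to 2.82), or 4.31-fold. It was 1.65 ± 0.45 among MHC-II-positive cells and 2.57 ± 0.45 among MHC-II-negative cells. The difference between these classes, the interaction, was -0.92 ± 0.64 and had an unadjusted p of 0.178 with limma.

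Of the 10 genes, Ctsk and Gpnmb had all 6 melanophage arrays above all 6 macrophage arrays, which was the case for 0.271% of all 19938 genes. Both were chosen for this difference, so nothing is read from that count. Their deviations from the group means hardly ran together (Pearson r = 0.05 over the 12 arrays, given as a description, since arrays of a group share a sort and a normalization). In a bulk sample, fewer cells that express a gene and less RNA per cell cannot be told apart.

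**Figure D1:**
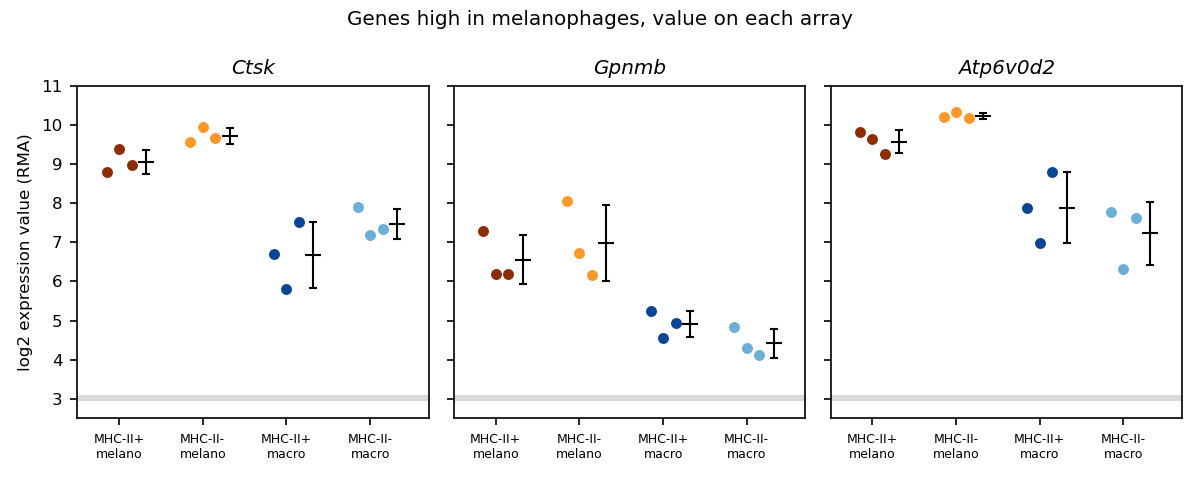
Log2 expression value on each array for Ctsk, Gpnmb and Atp6v0d2 in the 4 groups (3 points each, in replicate order), with the mean and SD as a black bar (n = 3) and the range of the array medians as a grey band. The melanophage points of Ctsk lie between 8.81 and 9.96, all above its macrophage points, which end at 7.90.

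Promoter sequence was available for 6 of the 10 genes, with 11 start sites in all. The sequences of Ctsk and Gpnmb are shown because these genes were high together in melanophages and both are known targets of MITF in osteoclasts. They are the 250 bases before the RefSeq start site on the plus strand of GRCm38.p6, chr3:95498960-95499209 for Ctsk and chr6:49036268-49036517 for Gpnmb. Capitals mark each CANNTG, the general E-box pattern, and do not mark sites of MITF or of any given protein.
Ctsk promoter: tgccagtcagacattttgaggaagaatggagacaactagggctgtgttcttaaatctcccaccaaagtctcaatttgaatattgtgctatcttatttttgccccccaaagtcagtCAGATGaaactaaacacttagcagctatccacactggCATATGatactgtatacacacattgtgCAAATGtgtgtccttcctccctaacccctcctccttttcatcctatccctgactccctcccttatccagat
Gpnmb promoter: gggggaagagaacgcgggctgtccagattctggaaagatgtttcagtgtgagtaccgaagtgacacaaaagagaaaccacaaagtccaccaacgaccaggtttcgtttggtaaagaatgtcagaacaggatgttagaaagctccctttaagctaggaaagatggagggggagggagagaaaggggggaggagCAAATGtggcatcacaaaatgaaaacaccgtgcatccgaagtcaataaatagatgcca

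The Ctsk window held 3 E-boxes, starting at -135, -98 and -71 from the start site, and the Gpnmb window held 1, at -58. An E-box was present in 66.2% of the 32851 promoters of the table, so its presence sets neither gene apart. The longer M-box (TCATGTGA or TCACGTGA, searched on both strands, each of which contains an E-box) was found in 1.61% of all promoters. Neither the Ctsk nor the Gpnmb window held one. Among the 11 start sites of the genes the M-box was found at 1, that of Acp5 listed last, within chr9:22130671-22130700 of GRCm38.p6, here on the minus strand with the motif in capitals.
Acp5 last start: aagtccagtgcTCACATGAcccaaggggag
The letters TGANTCA, bound by AP-1 (the Fos and Jun family), were in 6.75% of all promoters and at 0 of the 11 start sites. TCACATGA is TCATGTGA read from the other strand. These matches describe the letters and show no binding.

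Acp5 encodes tartrate-resistant acid phosphatase, the enzyme by which osteoclasts are usually stained. Its log2 values were 5.32, 5.38 and 4.94 in MHC-II-positive melanophages and 4.40, 5.43 and 4.47 in MHC-II-negative melanophages, against 4.78, 5.61 and 5.48 in MHC-II-positive macrophages and 5.24, 5.20 and 5.80 in MHC-II-negative macrophages. The cell kinds overlapped. The averaged log2 difference of melanophages minus macrophages was -0.36 ± 0.21 (95% confidence interval -0.84 to 0.11, limma adjusted p = 0.762).

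The genes of cell fusion were dim. Dcstamp, which encodes the membrane protein needed for precursors to fuse, lay at 2.69 to 2.88 on the melanophage arrays and 2.55 to 3.63 on the macrophage arrays. The highest values, 3.63 and 3.23, were both in MHC-II-positive macrophages, whose remaining array had 2.79. Ocstamp, which encodes a related fusion protein, lay at 2.66 to 3.10 on the melanophage arrays and 2.85 to 3.22 on the macrophage arrays. Averaged log2 differences were -0.18 ± 0.12 for Dcstamp (limma adjusted p = 0.798) and -0.06 ± 0.07 for Ocstamp (adjusted p = 0.900). Both genes lay near the array medians, so the arrays do not tell whether they are expressed at a low level.

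Among the receptors, Tnfrsf11a had log2 values of 3.49, 3.72 and 3.69 in MHC-II-positive and 3.71, 3.72 and 4.09 in MHC-II-negative melanophages. It had 3.42, 3.69 and 3.49 in MHC-II-positive and 3.33, 3.69 and 3.39 in MHC-II-negative macrophages. The averaged difference was 0.23 ± 0.10 (95% confidence interval 0.02 to 0.44) and did not pass over all genes (limma adjusted p = 0.622, unadjusted p = 0.0344). Among MHC-II-negative cells the 3 melanophage arrays lay above the 3 macrophage arrays, as they did for 5.57% of all genes. The log2 difference there was 0.37 ± 0.14 (adjusted p = 0.754). Itgb3, the beta chain of the integrin by which osteoclasts grip bone, lay at 2.7 to 3.08 on the melanophage arrays and 2.77 to 3.0 on the macrophage arrays. Calcr, the calcitonin receptor of mature osteoclasts, lay at 2.65 to 2.86 on the melanophage arrays and 2.69 to 2.81 on the macrophage arrays. Both were at or below the array medians on most arrays, and their averaged differences were -0.02 ± 0.08 (adjusted p = 0.978) and 0.01 ± 0.05 (adjusted p = 0.975).

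Of the transcription factors, Nfatc1, the main regulator of osteoclast formation, had log2 values of 4.20, 4.27 and 4.31 in MHC-II-positive and 4.53, 3.87 and 4.70 in MHC-II-negative melanophages. In MHC-II-positive macrophages it had 4.49, 4.21 and 4.23, and in MHC-II-negative macrophages 4.05, 4.36 and 4.41. The groups overlapped throughout, and the averaged difference was 0.02 ± 0.13 (95% confidence interval -0.28 to 0.31, limma adjusted p = 0.987). Mitf, which encodes the factor that drives pigment genes in melanocytes and resorption genes in osteoclasts, had 5.21, 5.02 and 5.0 in MHC-II-positive and 5.12, 4.69 and 5.31 in MHC-II-negative melanophages. It had 4.96, 4.78 and 4.67 in MHC-II-positive and 4.21, 5.43 and 4.82 in MHC-II-negative macrophages. Among MHC-II-positive cells the melanophage arrays lay above the macrophage arrays, as for 7.51% of all genes, while among MHC-II-negative cells they overlapped. The averaged difference of Mitf was 0.24 ± 0.18 (95% confidence interval -0.16 to 0.65, adjusted p = 0.822). A further Mitf probe set, which was dimmer, gave 0.20 ± 0.11 (adjusted p = 0.733 in the fit of all probe sets).

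**Figure D2:**
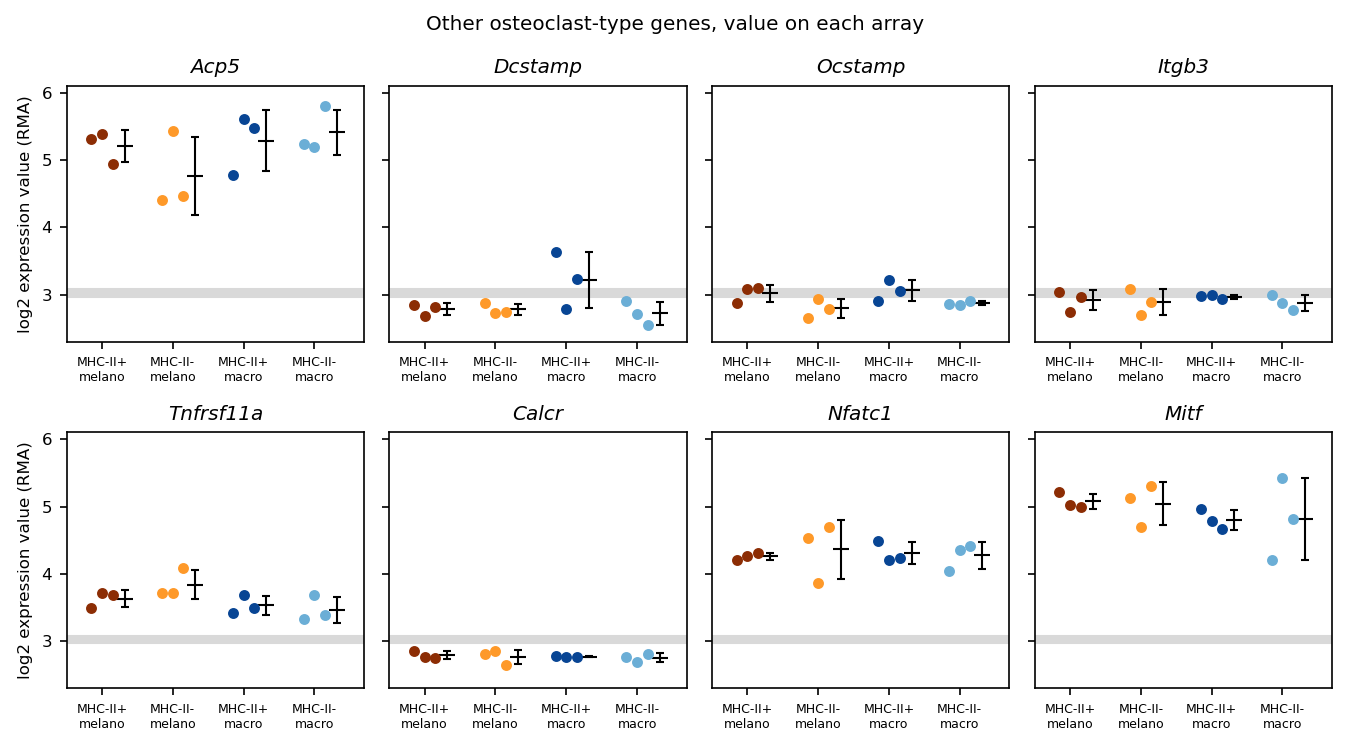
Log2 expression value on each array for the other 8 genes in the 4 groups (3 points each, in replicate order), with the mean and SD as a black bar (n = 3) and the range of the array medians, 2.97 to 3.08, as a grey band. Dcstamp, Ocstamp, Itgb3 and Calcr lie near or in the band, Acp5, Mitf, Nfatc1 and Tnfrsf11a lie above it, and melanophages and macrophages overlap in each panel.

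Of the 8 genes tested between the cell kinds, 0 passed in the averaged comparison with limma (1 with an unadjusted p under 0.05, namely Tnfrsf11a). An unadjusted p under 0.05 was found for 7.52% of all genes. Over all genes 0.12% passed in that comparison, so a count of 0 among 8 is near the background and says little by itself. The median log2 difference of the 8 was 0.00, with 4 above and 4 below 0, against 0.011 over all genes. The count was also 0 of 8 within MHC-II-positive cells, where 0.015% of all genes passed, and within MHC-II-negative cells, where 0.00502% passed. In these strata 1 of the 8 had an unadjusted p under 0.05 each, Dcstamp at -0.43 ± 0.18 among MHC-II-positive and Tnfrsf11a among MHC-II-negative cells. Over all genes the share with such a p was 6.3% among MHC-II-positive and 5.65% among MHC-II-negative cells. The upper ends of the 95% intervals of the averaged differences lay between 0.09 for Dcstamp and 0.65 for Mitf.

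**Figure D3:**
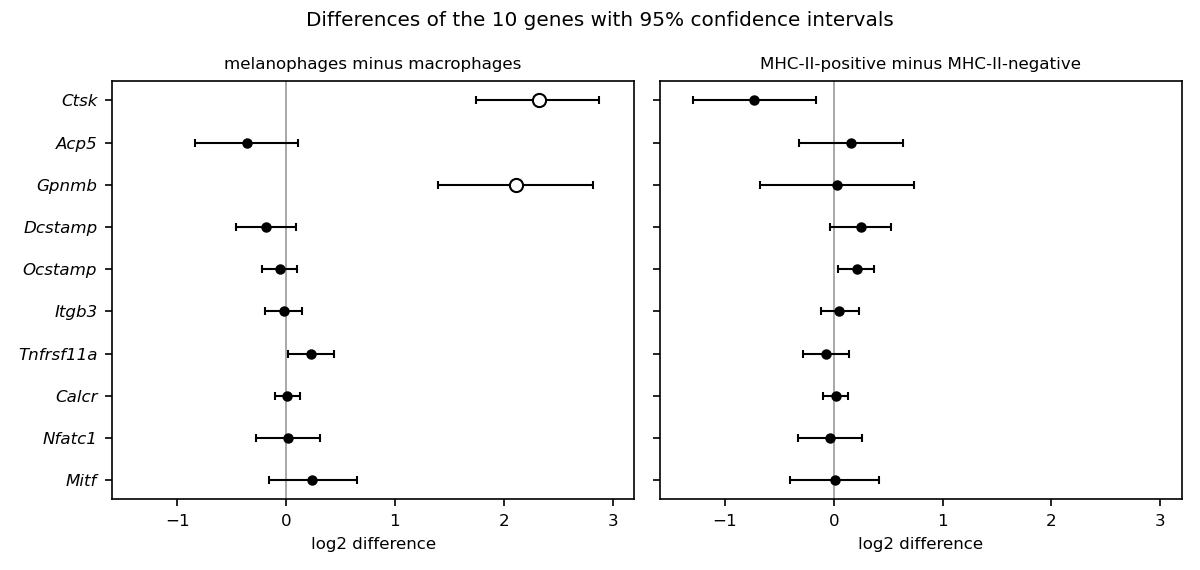
Log2 difference (x axis) of each of the 10 genes with its 95% confidence interval from limma, for melanophages minus macrophages averaged over MHC-II class (left) and for the MHC-II classes (positive minus negative) averaged over cell kind (right). Open circles mark Ctsk and Gpnmb, which were chosen for the difference on the left and not tested there, and the other 8 intervals on the left end at or below 0.65.

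Between the MHC-II classes all 10 genes could be tested, since that difference did not choose them. With limma 0 of the 10 passed averaged over cell kind (2 with an unadjusted p under 0.05, Ctsk and Ocstamp), where 0.762% of all genes passed. Over all genes 9.23% had an unadjusted p under 0.05 there. Ctsk had the largest log2 difference of the 10, -0.73 ± 0.25 for MHC-II-positive minus MHC-II-negative cells (95% confidence interval -1.29 to -0.16, adjusted p = 0.369). It was -0.67 ± 0.36 within melanophages and -0.79 ± 0.36 within macrophages. The 3 MHC-II-positive melanophage arrays of Ctsk lay below the 3 MHC-II-negative ones, as for 7.13% of all genes, and its macrophage arrays overlapped. Gpnmb differed by 0.03 ± 0.32 averaged over cell kind (adjusted p = 0.987), with -0.43 ± 0.45 within melanophages and 0.49 ± 0.45 within macrophages. Ocstamp differed by 0.21 ± 0.07 (adjusted p = 0.376) at a level near the array medians. Dcstamp differed by 0.49 ± 0.18 within macrophages (adjusted p = 0.481). Within melanophages 0 of 10 passed (0 with an unadjusted p under 0.05, 0.211% of all genes called), and within macrophages 0 of 10 (1 with an unadjusted p under 0.05, 0.341% of all genes called). Over all genes the share with an unadjusted p under 0.05 was 5.7% within melanophages and 7.83% within macrophages.

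The interaction asks whether the difference between the cell kinds depended on MHC-II class. With limma 0 of the 10 passed, 0 had an unadjusted p under 0.05, and 0% of all genes passed, the smallest adjusted p over all genes being 0.965. Over all genes 4.11% had an unadjusted p under 0.05. The interaction was 0.12 ± 0.51 for Ctsk (95% confidence interval -1.01 to 1.25) and -0.92 ± 0.64 for Gpnmb (-2.34 to 0.49), so for Ctsk the interval covers a doubling in either direction.

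In 6 further lists of osteoclast genes, 70 of 72 listed genes were measured. These lists were written with earlier results of these data known. Atp6v0d2 was among those results, so its difference between the cell kinds is described without a test. Averaged over MHC-II class, the other 69 genes did not pass between melanophages and macrophages with limma, where 0.12% of all genes passed. An unadjusted p under 0.05 was found for 12 of the 70 and for 7.52% of all genes. The 12 include Atp6v0d2, whose difference was known beforehand, so that count is given as a description. Apart from Atp6v0d2 and Cd47 (0.23 ± 0.10), these genes were lower in melanophages. Of the 70 differences 28 lay above 0 and 42 below. The median log2 difference of the 70 was -0.05, against 0.01 over all genes. Atp6v0d2 encodes the d2 subunit of the proton pump, made by osteoclasts and some other macrophages. Its log2 values were 9.83, 9.65 and 9.26 in MHC-II-positive and 10.20, 10.33 and 10.19 in MHC-II-negative melanophages, against 7.87, 6.99 and 8.80 in MHC-II-positive and 7.77, 6.31 and 7.62 in MHC-II-negative macrophages. All melanophage arrays were above all macrophage arrays, as for 0.271% of all genes. Nothing is read from that, since the difference of Atp6v0d2 was known beforehand. The averaged difference was 2.35 ± 0.32 (SE, 95% confidence interval 1.65 to 3.05), and it was 1.69 ± 0.45 among MHC-II-positive and 3.01 ± 0.45 among MHC-II-negative cells. The deviations of Atp6v0d2 from its group means ran with those of Ctsk (r = 0.80 over 12 arrays) more than with those of Gpnmb (r = 0.25), both given as descriptions.

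Of the 18 measured genes of the resorption machinery, the 17 besides Atp6v0d2 did not pass, and the median log2 difference of the 18 was -0.02. Apart from Atp6v0d2 the largest difference was that of Ckb, a creatine kinase that supplies energy in osteoclasts, at -0.55 ± 0.30 (limma adjusted p = 0.726). In this list 8 differences lay above 0 and 10 below, and 4 had an unadjusted p under 0.05 with limma, Atp6v0d2 included. The remaining genes of these 4 were lower in melanophages. They were Mmp14 at -0.53 ± 0.14 (adjusted p = 0.303), Mmp9 at -0.35 ± 0.09 (0.261) and Rab3d at -0.32 ± 0.11 (0.488). Mmp9 and Rab3d lay near the array medians in melanophages. Of the 14 genes of fusion and costimulation 0 passed, with a median of 0.04. Itgav, which encodes the alpha chain that pairs with the Itgb3 product, had the largest difference of that list at -0.92 ± 0.28 (adjusted p = 0.416).

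Of the 23 measured genes of RANK signalling and transcription 0 passed between the cell kinds. The log2 difference lay below 0 for 18 of the 23 (median -0.14), against 45.2% of all genes (median 0.01). Nfkb2, a subunit of the NF-kappaB pathway downstream of RANK, had the largest, -0.43 ± 0.19 (limma adjusted p = 0.669). Of the 3 other genes of the MITF family 0 passed, the largest difference being -0.42 ± 0.16 for Tfe3 (adjusted p = 0.566). Of 8 measured repressors of osteoclast formation 0 passed (median 0.01), the largest difference being -0.30 ± 0.10 for Rbpj (adjusted p = 0.512). Of the 4 ligands and decoy receptors 0 passed (median -0.04), and the largest was -0.11 for Csf1, the macrophage growth factor. Without the 2 macrophage arrays farthest from their group mates, 4 of the other 69 fell, and those 4 were Itgav, Ckb, Fosl2 and Rbpj. In that setting 117 of all 19938 genes passed, against 24 (0.12%) in the main fit.

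Between the MHC-II classes, averaged over cell kind, 2 of the 70 rose, 0 fell and 68 did not pass with limma, where 0.762% of all genes passed. An unadjusted p under 0.05 was found for 16 of the 70 and for 9.23% of all genes. The median log2 difference of the 70 was 0.07, against -0.02 over all genes. Adam8, a membrane protease that promotes osteoclast fusion, had 4.36, 4.21 and 4.49 in MHC-II-positive and 4.05, 3.96 and 4.11 in MHC-II-negative melanophages, and 5.30, 4.94 and 4.69 in MHC-II-positive and 3.83, 3.99 and 3.94 in MHC-II-negative macrophages. Its difference was 0.69 ± 0.10 (limma adjusted p = 0.00794). The group means of Adam8 were 4.35 and 4.04 in MHC-II-positive and MHC-II-negative melanophages, and 4.98 and 3.92 in macrophages. Within macrophages Adam8 was the 1 of the 70 that passed, where 0.341% of all genes passed. Within melanophages 0 of the 70 passed, where 0.211% of all genes did, and 0 passed for the interaction. Jdp2, a transcription factor of the AP-1 family that acts in osteoclast formation, had 5.48, 5.78 and 6.13 in MHC-II-positive and 5.21, 5.26 and 5.46 in MHC-II-negative melanophages. In macrophages it had 6.44, 6.21 and 6.35 in MHC-II-positive and 5.14, 5.52 and 5.59 in MHC-II-negative cells. For both genes the MHC-II-positive arrays lay above the MHC-II-negative ones within melanophages, as for 5.12% of all genes, and within macrophages, as for 4.96%. The averaged difference of Jdp2 was 0.70 ± 0.12 (adjusted p = 0.0231), a call that ended without replicate 2 of the MHC-II-positive melanophages (0.0634), replicate 1 (0.0665) or 2 (0.0608) of the MHC-II-negative melanophages, or replicate 1 of the MHC-II-positive macrophages (0.0593), without both far macrophage arrays (0.0754), and with trend and robust options (0.0533). The largest differences that did not pass were Cd9 at 0.97 ± 0.36 and Sh3pxd2a at -0.95 ± 0.38.

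By list, 1 of 14 genes rose in fusion and costimulation, 1 of 23 in RANK signalling and transcription, and 0 in resorption machinery, the MITF family, repressors and ligands. In those 4 lists the largest averaged differences between the MHC-II classes were Ckb at 0.76 ± 0.30, Tfeb at 0.05 ± 0.10, Tnfaip3 at 0.72 ± 0.23 and Il34 at -0.14 ± 0.10, none of which passed with limma. Mmp14, a membrane-bound collagenase on the resorption list named here after its values were seen, differed by 0.70 ± 0.14 (adjusted p = 0.0565) and passed in 4 of 23 alternatives, namely both filters on dim genes, median centring and the trend and robust options (adjusted p from 0.0348 to 0.155 over the 23). Of 6 dendritic cell markers 3 rose with MHC-II class as well, where 0.762% of all genes passed. The mean of the 6 (Itgax, Flt3, Zbtb46, Ccr7, Cd207 and Xcr1) was 3.68 to 4.06 in MHC-II-positive and 3.25 to 3.42 in MHC-II-negative melanophages, and 4.34 to 4.61 in MHC-II-positive and 3.28 to 3.48 in MHC-II-negative macrophages. Their part in the differences of Adam8 and Jdp2 was not tested.

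**Figure D4:**
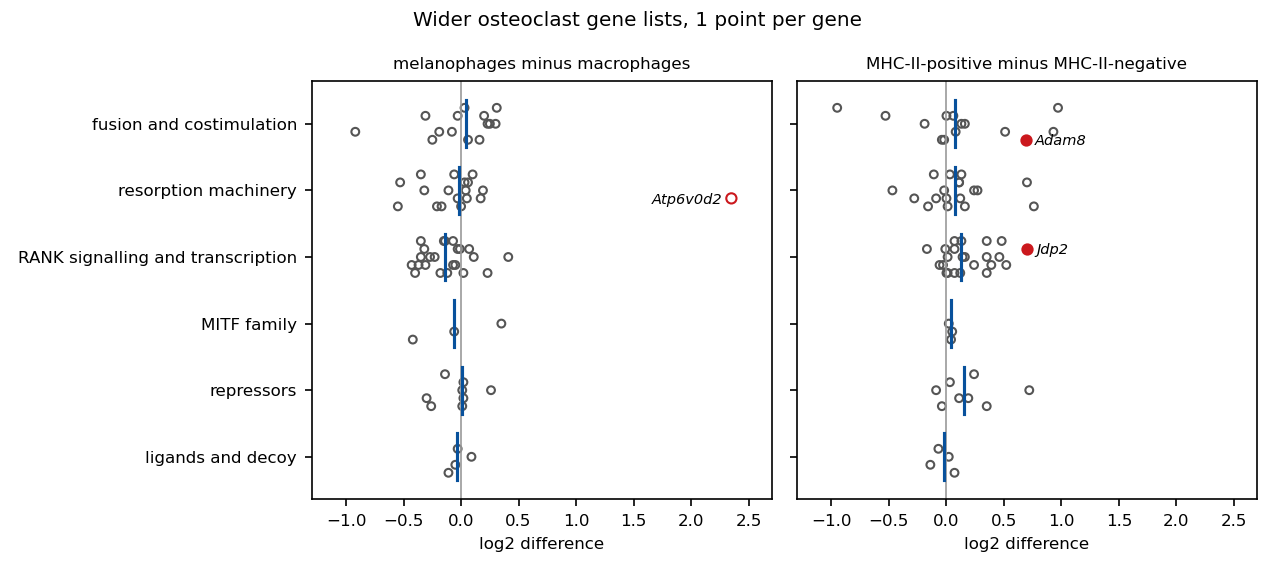
Log2 difference (x axis) of the 70 measured genes of the 6 further lists, 1 point per gene, for melanophages minus macrophages averaged over MHC-II class (left) and for the MHC-II classes (positive minus negative) averaged over cell kind (right). Filled red points passed with limma over all genes (adjusted p under 0.05), the open red ring marks Atp6v0d2, known beforehand and not tested, blue lines are list medians, and vertical spread within a list only separates points. Atp6v0d2 lies at 2.35 on the left, and Adam8 and Jdp2 are the filled points on the right.

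The genes whose pattern was most like that of Ctsk were sought by Pearson correlation over the 12 arrays among 3930 genes that were brighter than the median gene and varied by at least 1 on the log2 scale. The measure contains the difference between the cell kinds and is given as a description. They were Mpc1, a subunit of the mitochondrial pyruvate carrier (r = 0.93), the N-terminal acetyltransferase gene Naa20 (0.91), Atp6v0d2 (0.90), Cnrip1 (0.89) and the lectin-like receptor gene Klra3 (0.89). For Gpnmb they were the SLAM family receptor gene Cd84 (r = 0.91), Atp6v0d2 (0.87), Pianp (0.87), Cyba, a subunit of the phagocyte oxidase (0.86), and the ubiquitin-conjugating enzyme gene Ube2q2 (0.84). Atp6v0d2 was the gene common to both lists. Of the other 8 osteoclast-type genes only Acp5 and Mitf met the limits of level and range, so 6 of the 8 could not appear, and neither Acp5 nor Mitf was in either list.

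Several of the 10 genes are known from other cells of the skin, Ctsk from fibroblasts and Gpnmb and Mitf from melanocytes. The mean of 8 fibroblast markers (Col1a1, Col1a2, Col3a1, Dcn, Lum, Pdgfra, Pdgfrb and Dpt) was 3.18 to 3.41 on the melanophage arrays and 3.2 to 3.63 on the macrophage arrays. Dcn stood above the others, with group means of 5.36 and 5.26 in MHC-II-positive and MHC-II-negative melanophages, and 5.37 and 6.31 in macrophages. Its highest array, at 7.11, was in MHC-II-negative macrophages. Of these 8 markers 0 passed between the cell kinds (0.12% of all genes passed). Their median log2 difference was -0.02, and that of Dcn was -0.53. The part of fibroblast RNA in the values of Ctsk was not tested. The mean of 8 melanocyte markers (Dct, Tyr, Tyrp1, Pmel, Mlana, Sox10, Slc45a2 and Slc24a5) was 2.85 to 2.96 on the melanophage arrays and 2.76 to 2.87 on the macrophage arrays, below the array medians in both. Of these 8 markers 0 passed (0.12% of all genes passed), with a median of 0.06. Their differences lay above 0 for 7 and below 0 for 1, and below 0 for 45.2% of all genes. Mlana had the largest, 0.29, and reached 4.05 on 1 array of the MHC-II-positive melanophages. Its group means were 3.41 and 3.03 in MHC-II-positive and MHC-II-negative melanophages, and 2.9 and 2.97 in macrophages. The part of the melanocyte markers in the values of Gpnmb and Mitf was not tested. Itgb3 is also a platelet and endothelial gene. The mean of the 4 measured platelet markers was 5.26 to 5.47 on the melanophage arrays and 5.24 to 5.38 on the macrophage arrays, and 2 of the 4 averaged below the highest array median in every group. That mean was raised by Pf4, whose group means were 11.85 to 12.13, while those of Itga2b, Gp9 and Treml1 were 2.6 to 3.84. The mean of 6 endothelial markers was 2.69 to 2.77 on the melanophage arrays and 2.68 to 2.81 on the macrophage arrays. That of 6 keratinocyte markers was 2.97 to 3.2 on the melanophage arrays and 2.91 to 3.10 on the macrophage arrays. Of the 6 dendritic cell markers 0 rose and 2 fell between the cell kinds, Itgax and Cd207, where 0.12% of all genes passed. The same 2 fell among MHC-II-positive cells, where 0.015% of all genes passed, and 0 of the 6 passed among MHC-II-negative cells. Cd207 differed by -1.16 averaged over MHC-II class and by -2 among MHC-II-positive cells, and the part of these markers in the differences between the cell kinds was not tested.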

How the data were processed

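Per the labels' protocols, 3 to 20 ng of total RNA per sample was amplified (NuGEN Ovation Pico WTA), labelled with biotin and hybridised. The authors deposited log2 values made by RMA, and per the submitters' processing notes oligo for R was used. Its version is not given in the sources used here. The number of arrays limits the precision. Of 35556 probe sets, 21789 had 1 gene symbol, 1621 several and 12146 none, and the probe set with the highest mean stood for each of 19938 genes. With limma 3.58.1 in R 4.3.3, 1 fit of all 12 arrays on the 4 group means gave every contrast, with Benjamini-Hochberg adjustment over all genes (threshold 0.05). The code was run on simulated data with independent noise and differences of at least 1 log2 unit in brighter genes. That run does not cover dim genes, smaller differences or shared effects of a run. The members and lists were chosen with earlier results of these data known. Named were all 10 members, and of the further lists each called gene and the largest difference between the cell kinds and between the MHC-II classes. A few further genes of these lists were named after their values were seen. Also named were the 5 genes nearest to Ctsk and to Gpnmb, leaving out predicted genes, olfactory, vomeronasal and antigen receptors. Markers are given as counts and list means. All 10 members matched RefSeq, whose promoters come from GRCm38.p6. No build is named for the array annotation. Alternatives were filters, centring, array weights, moderation options, pairwise fits, leaving out arrays and, added later, a block for runs of title codes.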

Additional observations from a re-analysis of the deposited data

How the results depend on the processing

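None of the 1466 tested member differences passed with limma under any alternative, and the smallest adjusted p was 0.0771, for Ctsk between the MHC-II classes averaged over cell kind. The counts of members that passed stayed at 0 in all 165 recomputed counts. Of 1608 member differences 111 changed sign, all within 1 SE of 0. The averaged log2 difference of melanophages minus macrophages ranged from 2.1 to 2.63 for Ctsk and from 1.84 to 2.31 for Gpnmb, and 0 of their 142 values between the cell kinds moved by over 1 SD. Counts over all genes moved more. Averaged over MHC-II class, 24 genes passed between melanophages and macrophages, against 1 to 30 without 1 array (1 without replicate 1 of the MHC-II-negative melanophages or replicate 2 of the MHC-II-negative macrophages). There were 38 with a filter on the mean, 15 after median centring, 45 with array weights and 117 without the 2 farthest macrophage arrays. Among MHC-II-positive cells 3 passed, against 0 to 20 without 1 array and 0 to 34 otherwise, and among MHC-II-negative cells 1, against 0 to 8 and 0 to 12. Between the MHC-II classes 152 passed averaged over cell kind (96 to 158 without 1 array, 145 to 215 otherwise), 42 within melanophages (19 to 46 and 35 to 63) and 68 within macrophages (47 to 92 and 27 to 101, the 27 when only those groups were fitted). The interaction had 0, against 0 to 3 without 1 array. The cause was not tested. The labels give no replicate numbers, but codes in the titles fall in 3 runs, each with 1 array of every group. Of 18 pairs of arrays from the same run 5 had deviations from the group means that correlated over 0.1 (median -0.03, and 0.06 in the 36 other pairs), and 5 of 12 arrays correlated best with their own run. The main fit did not pair the samples by run. These correlations run over all genes and do not settle pairing for a single gene such as Gpnmb. With the runs as a replicate block, chosen after seeing the data, 0 members passed, Adam8 and Jdp2 still passed, and the genes called among MHC-II-negative cells numbered 6. The SE of Gpnmb fell to 0.17 for its averaged difference of 2.11 and to 0.35 for its interaction of -0.92 (limma adjusted p = 1). Signals near the array medians limit what can be said of Dcstamp, Ocstamp, Itgb3 and Calcr.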
